A study of Mus musculus with 2 samples.

Results

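The Kit and Ednrb receptor loci were examined in peak lists from chromatin immunoprecipitation followed by sequencing (ChIP-seq) of melan-a cells. The members were all EP300 peaks and H3K4me1 regions that overlap chr5:75800000-76150000 for Kit or chr14:104100000-104400000 for Ednrb, in mm9 coordinates. They came to 47 of the 78725 entries in all lists, 29 in the Kit window of 350 kb and 18 in the Ednrb window of 300 kb. The lists carry no gene names, so members were found by position alone. In the RefSeq annotation, which uses another genome build and served here for names and order only, the nearest protein-coding neighbours of Kit are Pdgfra and Kdr, and those of Ednrb are Slain1 and Pou4f1. Kit is 81.7 kb long there, equal to 23.4% of its window, and Ednrb is 29.9 kb long, equal to 9.96%. Which peaks lie in an exon, an intron or a promoter of the genes was therefore not worked out.

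Melan-a is an immortalized mouse melanocyte line, labelled with strain C57BL/6 and genotype Ink4a -/-, and both samples came from these untreated cells. The EP300 sample has 2 replicate peak lists, and the H3K4me1 sample, also of 2 replicates, has 1 list of regions. No label says that the replicates were separate cultures, so the spread between them may be technical. No other cell type or treatment was compared, and the melanocyte identity of the cells could not be checked from lists without gene names.

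Kit is the receptor tyrosine kinase for Kit ligand, and Ednrb is a G protein-coupled receptor for endothelins, among them endothelin 3. Both receptors are needed by migrating melanocyte precursors, and loss of either leaves white spotting in the mouse coat. EP300 is a histone acetyltransferase recruited by transcription factors to enhancers and promoters, and H3K4me1, histone H3 with a single methyl group at lysine 4, often flanks such sites on both sides.

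The promoters of the 2 receptor genes are shown because they are the regulatory sequence of Kit and Ednrb in the reference tables used here. The sequence under the EP300 peaks was not analysed here. Each is the 250 bases before a RefSeq transcription start in GRCm38.p6, read 5′ to 3′ on the strand of the gene, with CG dinucleotides in capitals. The Kit promoter is chr5:75574737-75574986 on the plus strand and the Ednrb promoter is chr14:103843702-103843951 on the minus strand. These coordinates belong to a different build from the windows and cannot be set against the peaks.
Kit promoter: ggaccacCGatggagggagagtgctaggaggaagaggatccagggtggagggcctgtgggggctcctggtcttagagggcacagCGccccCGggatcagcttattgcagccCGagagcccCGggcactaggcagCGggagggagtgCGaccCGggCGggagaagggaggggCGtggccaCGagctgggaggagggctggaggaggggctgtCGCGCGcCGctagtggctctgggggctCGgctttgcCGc
Ednrb promoter: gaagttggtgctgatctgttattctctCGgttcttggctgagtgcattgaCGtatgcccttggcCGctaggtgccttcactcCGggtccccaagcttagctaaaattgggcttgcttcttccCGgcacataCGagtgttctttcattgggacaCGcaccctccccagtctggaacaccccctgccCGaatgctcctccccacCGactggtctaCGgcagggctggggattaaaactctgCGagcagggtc
The Kit promoter is 70.8% G and C with 17 CG dinucleotides, and the Ednrb promoter is 56.8% G and C with 11, against medians of 52.4% and 6 over the 32851 promoters of the table. Neither stretch holds, on either strand, the E-box letters CATGTG or CACGTG that the melanocyte factor MITF can bind, the SOX-type letters ACAAAG or ACAATG, or the AP-1 letters TGACTCA. Of all promoters of this length, 12.3% hold CATGTG, 6.02% CACGTG, 16.5% ACAAAG, 10.7% ACAATG and 4.46% TGACTCA, so most promoters lack any given one of these motifs.

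Each receptor window held 3 EP300 loci found in both replicates, where a shared locus is the merged interval of overlapping peaks with at least 1 from each list. The Kit window had 3 peaks in replicate 1 and 4 in replicate 2, and the Ednrb window had 4 and 5. All 3 replicate 1 peaks of Kit and 3 of the 4 of Ednrb were found again in replicate 2, whereas 42.9% of all replicate 1 peaks were. In the other direction, 3 of the 4 replicate 2 peaks of Kit and 3 of the 5 of Ednrb were found in replicate 1, against 34.8% of all replicate 2 peaks. The 4 peaks of the 2 windows that were left over had no H3K4me1 region within 1000 bp, and all 6 shared loci had one. Across the genome, 96.1% of shared loci had H3K4me1 within 1000 bp, so the 6 loci were like the rest. Of peaks found only in replicate 1 or only in replicate 2, 53.4% and 53.9% had none within that distance. The strongest EP300 locus was the third of Ednrb, which stood 62nd among the 3573 shared loci of the genome, ordered by the mean of the 2 ranks. The 2 lists rest on 31439027 and 32355042 filtered ChIP tags.

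**Figure D1:**
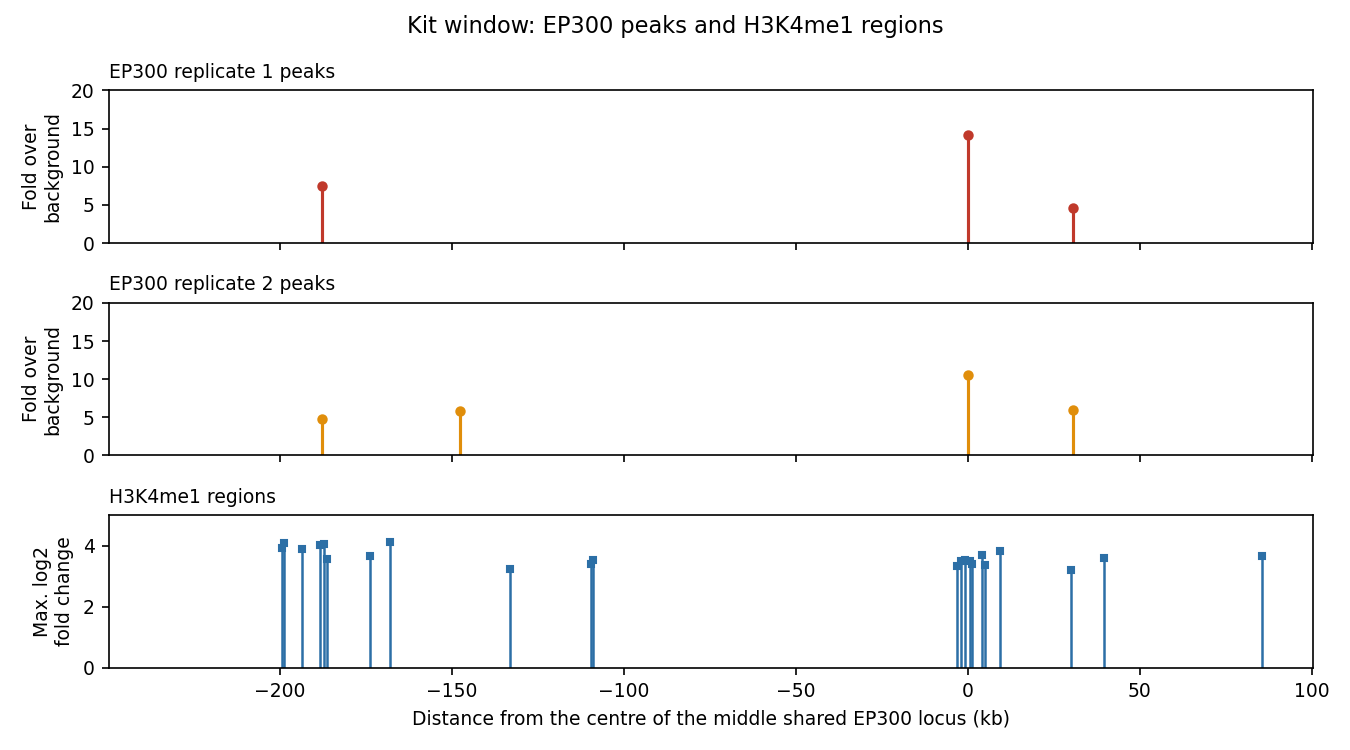
EP300 peaks of each replicate (height, fold enrichment over the local background) and H3K4me1 regions (height, maximum log2 fold change) across the Kit window, by distance in kb from the centre of the middle shared locus. Shared loci stand at the left and right of a stretch of 105.7 kb without any H3K4me1 region, and the middle locus is the highest in both replicates, at 14.1-fold and 10.5-fold.

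The first Kit locus, at chr5:75861336-75862354, had 74 tags in replicate 1 and 40 in replicate 2. It was enriched 7.48-fold and 4.83-fold over the local background. Its replicate 1 peak ranked 2571 of 8451 by significance, but its replicate 2 peak only 10034 of 10351, with a significance (the Poisson p-value as -log10, multiplied by 10) of 50.6, just above the lowest value of that list, 50.01. The locus was thus in the weakest part of the replicate 2 list, and stood 3397th among the shared loci. Relative to the filtered ChIP tags of each list, replicate 1 had 1.90 times the tags of replicate 2 (the scaled ratio), with an exact binomial 95% interval of 1.28 to 2.87 that covers counting error only. Among the 6 member loci this was the only interval that left out 1, as did 31.8% of the intervals of all shared loci. Tags were counted over each replicate's own peak, here 995 bp and 969 bp long, so scaled ratios also depend on peak length.

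The background value at this locus was also higher in replicate 1. Solving the Poisson tail for its mean gave a background of 1.91 times the genome-wide level in replicate 1 and 1.16 times in replicate 2. No counting error was worked out for the background values of this or any other locus, so differences between them may lie within it. From the fold enrichment, the summit then held 47.0 overlapping fragments in replicate 1 and 19.0 in replicate 2. The summits themselves lay 43 bp apart, so that both replicates placed the peak at the same position. Whether the higher background in replicate 1 has a part in the difference in tags was not tested.

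The middle Kit locus, at chr5:76049147-76050225, was the strongest of its window. It had 79 tags in replicate 1 and 67 in replicate 2, a scaled ratio of 1.21 with an interval of 0.865 to 1.71, so that the difference was within counting error. Enrichment was 14.1-fold and 10.5-fold, compared with medians of 7.34-fold and 6.85-fold over all shared loci. Its ranks were 709 and 1249, its place among the shared loci was 791st, and its summits were 40 bp apart. With a background of 1.01 times and 1.32 times the genome-wide level, the summit held 47.0 fragments in each replicate. The first Kit locus had the same calculated height in replicate 1. Since the height is calculated from fold and background, its lower fold there is tied to its higher background by construction.

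The last Kit locus, at chr5:76079750-76080947, had 70 tags in replicate 1 and 55 in replicate 2, a scaled ratio of 1.31 with an interval of 0.907 to 1.90. Its enrichment was lower, at 4.57-fold and 5.99-fold, with summits of 23.0 and 22.0 fragments placed 216 bp apart. The log2 ratio of replicate 1 over replicate 2 was 0.39 for scaled tags but -0.39 for fold. The signs differ, but the interval of the tag ratio includes 1, so the tags have no clear direction. The background was 1.53 times the genome-wide level in replicate 1 and 1.08 times in replicate 2. It stood 2092nd among the shared loci, near the middle of the order.

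A further peak of the Kit window was found in replicate 2 alone, at chr5:75901635-75902129, with 26 tags and 5.87-fold enrichment. It ranked 5826 of 10351, better than the replicate 2 peak of the first shared locus. The nearest H3K4me1 region was 14321 bp away, and the nearest replicate 1 peak 39305 bp away. Of all peaks found only in replicate 2, 53.9% had no H3K4me1 within 1000 bp. The share of such peaks as far from the mark as this one was not worked out.

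**Figure D2:**
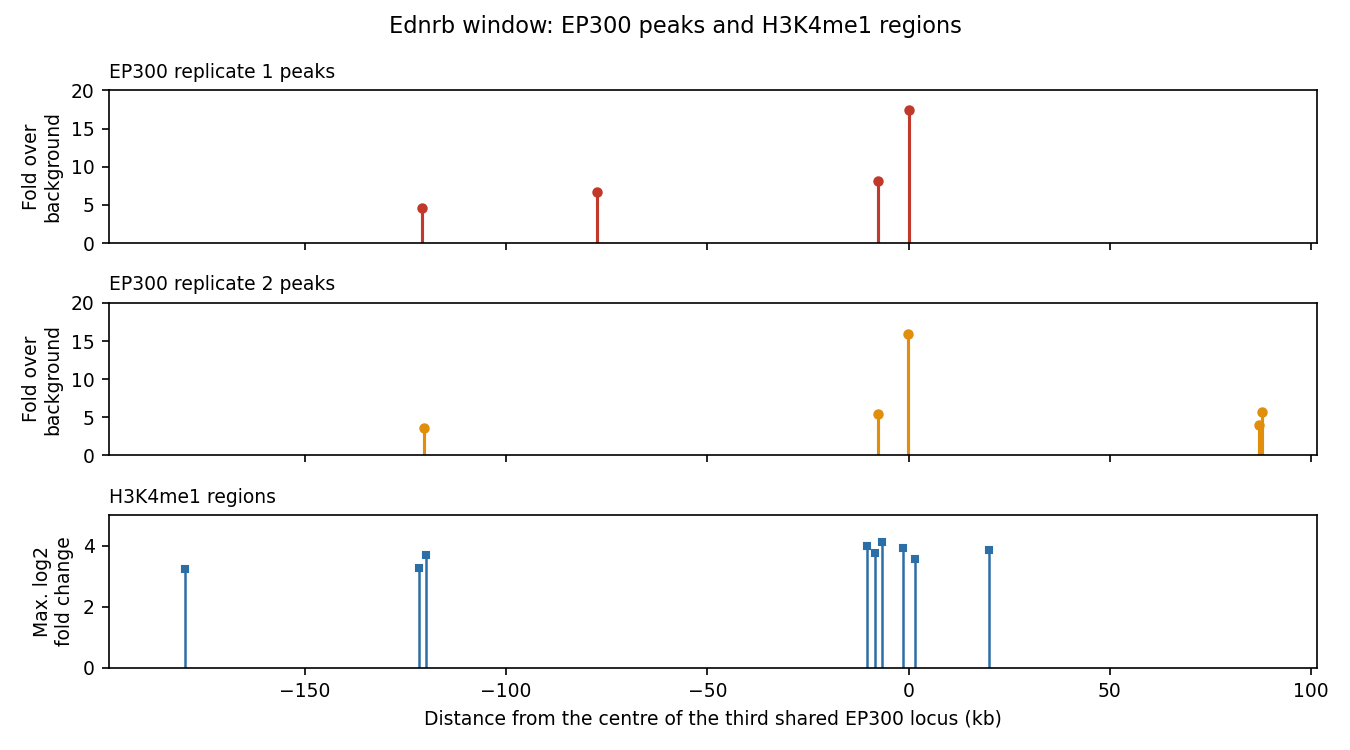
EP300 peaks of each replicate (height, fold enrichment over the local background) and H3K4me1 regions (height, maximum log2 fold change) across the Ednrb window, by distance in kb from the centre of the third shared locus. The third locus reaches 17.5-fold and 15.9-fold, and the second lies 7.66 kb to its left among 5 H3K4me1 regions.

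The first Ednrb locus, at chr14:104177232-104178794, had 44 tags in replicate 1 and 45 in replicate 2, a scaled ratio of 1.01 with an interval of 0.649 to 1.56. Enrichment was 4.56-fold and 3.56-fold, the lowest of the 6 member loci in each replicate. The summit heights came out at 15.0 and 13.6 fragments, and the replicate 2 value is the only one of the 6 shared loci that was not whole to within 0.1, so it is uncertain. The tags were within 1 of each other, but the peaks lay at different positions. The peaks shared 451 bp, 49.0% of the shorter, and their summits lay 486 bp apart, against a median of 67 bp over all shared loci. Had 50% of the shorter peak been asked for as the overlap, this locus would not count as shared.

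The second Ednrb locus, at chr14:104290393-104291402, had 49 tags in replicate 1 and 43 in replicate 2, a scaled ratio of 1.17 with an interval of 0.763 to 1.81. It was enriched 8.18-fold and 5.38-fold, with summits of 27.0 and 24.0 fragments that lay 115 bp apart. Its rank was 2616 of 8451 in replicate 1 and 7780 of 10351 in replicate 2, and it stood 3151st among the shared loci. As at the first Kit locus, the replicate 2 peak was in the lower part of its list, but here the tags did not differ beyond counting error.

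The third Ednrb locus, at chr14:104297271-104299785, had 207 tags in replicate 1 and 250 in replicate 2, a scaled ratio of 0.852 with an interval of 0.705 to 1.03. Its replicate 1 peak was 1784 bp long and lay wholly within the replicate 2 peak of 2515 bp. The scaled ratio thus compares tags over stretches of unequal length. Enrichment was 17.5-fold and 15.9-fold, the ranks were 97 and 72, and the summits held 83.0 and 71.0 fragments and lay 76 bp apart. As at the last Kit locus, the log2 ratios differed in sign, at -0.23 for scaled tags and 0.13 for fold, while the interval of the tag ratio includes 1. Among the 135 shared loci of chromosome 14 it held place 3. At 2515 bp it was also among the longest, since 110 of all 3573 shared loci exceeded 2500 bp and the median was 1278 bp.

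The Ednrb window had 3 peaks of a single list, with 26 to 35 tags. The replicate 1 peak at chr14:104220964-104221654 had 30 tags and 6.68-fold enrichment, above the median of its list of 5.79-fold, ranked 5886 of 8451, and lay 42065 bp from the nearest H3K4me1 region. In replicate 2 a pair of neighbouring peaks, at chr14:104385390-104386075 and chr14:104386083-104386581, had 35 and 26 tags with 4.05-fold and 5.72-fold enrichment. They ranked 7065 and 7163 of 10351, better than the replicate 2 peaks of the first and the second shared Ednrb locus, at 7205 and 7780. They were called apart but almost touch, and lay 19875 bp and 19369 bp from H3K4me1. Of all peaks found only in replicate 1, 53.4% had no H3K4me1 within 1000 bp. Shares at distances as great as those of the single-list Ednrb peaks were not worked out.

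**Figure D3:**
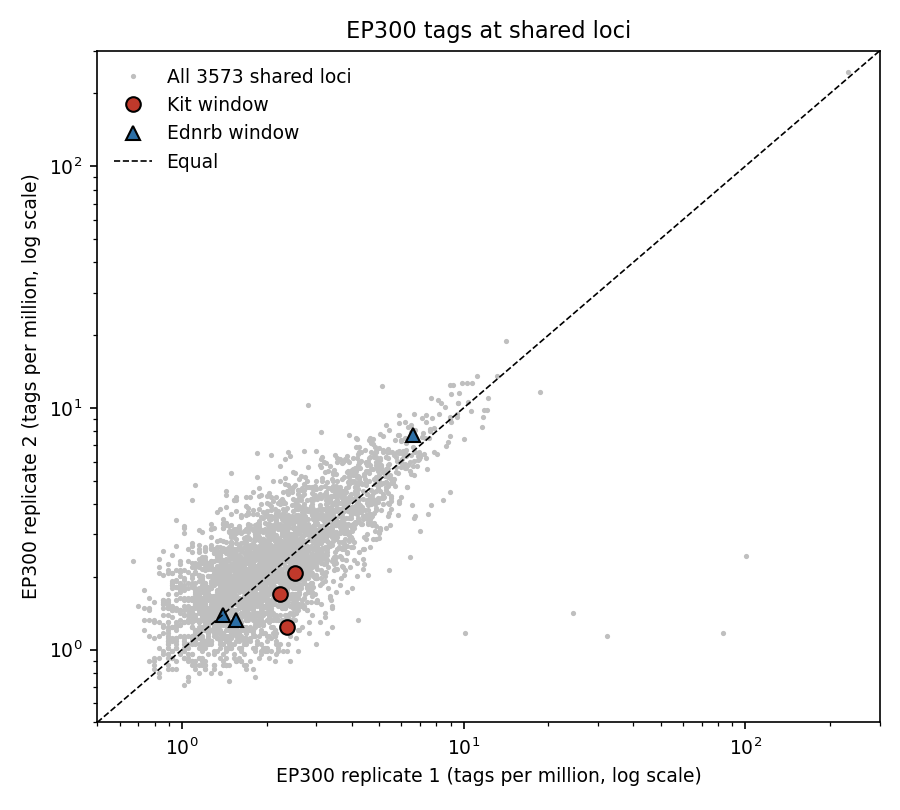
EP300 tags per 1000000 filtered ChIP tags at all 3573 shared loci (grey), in replicate 1 (x axis) and replicate 2 (y axis), both on log scales, with the 3 Kit loci (circles) and 3 Ednrb loci (triangles) and the line of equal values (dashed). All 3 Kit loci and the second Ednrb locus lie below the line, the first Ednrb locus lies almost on it, and the third lies above it. The cloud of all loci surrounds them. Tags were counted over each replicate's own peak, so positions also depend on peak length, which differs between replicates.

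Relative to the spread between replicates across the genome, none of the 6 loci was extreme in fold enrichment. The log2 ratio of fold, replicate 1 over replicate 2, was 0.63, 0.42 and -0.39 at the Kit loci and 0.36, 0.60 and 0.13 at the Ednrb loci, in order of position. Over all shared loci the median was 0.10 with an SD of 0.53, so each member lay within 1 SD of the median. In tags the first Kit locus stood further out. Its log2 tag ratio of 0.93 was above that of 97.9% of shared loci, where the median was -0.12 with an SD of 0.53.

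H3K4me1 lay beside every one of the 6 shared loci, but flanked them in different ways. A region was within 1000 bp of the edges of all 3 loci in each window, as it was at 96.1% of all shared loci, so the receptor windows were like the rest in this respect. The centre of 2 Kit loci and 2 Ednrb loci lay in a gap, meaning outside any region while regions began within 1000 bp to its left and to its right, against 62.3% of all shared loci. Of the remaining loci, the last of Kit had H3K4me1 on a single side (19% of all shared loci), and the third of Ednrb had none within 1000 bp of its centre (6.47%).

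**Figure D4:**
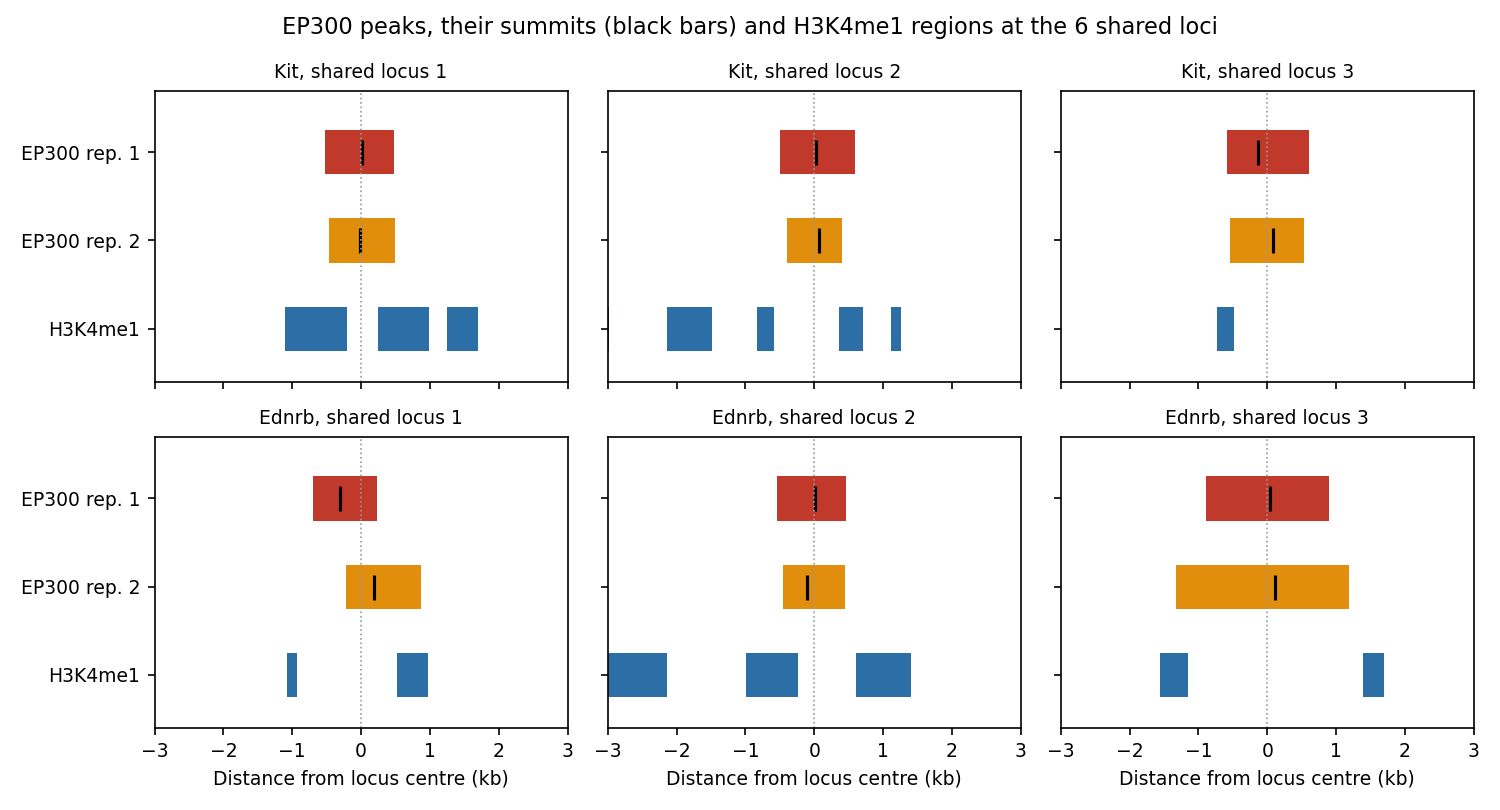
Extent of the EP300 peaks of replicate 1 and replicate 2, their summits (black bars) and the H3K4me1 regions within 3 kb of the centre of each shared locus (dotted line), by distance in kb. H3K4me1 lies on both sides of 5 loci, widest apart at the third Ednrb locus with 2550 bp between regions, and only to the left of the last Kit locus.

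At the first Kit locus the gap was narrow, 450 bp between a region of 900 bp on the left and one of 750 bp on the right. These regions ranked 17381 and 12584 of 59923, with a maximum log2 fold change of 4.03 and 4.06, above the list's median of 3.72. They belonged to a group of 6 regions spanning 13700 bp, a group being regions no more than 5 kb from their neighbours. In it the best of the window, ranked 11781, lay 10087 bp to the left of the locus. Both flanks ranked higher than those of the other Kit loci.

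At the middle Kit locus the gap was 950 bp, between regions of 250 bp and 350 bp that ranked 35923 and 38252. Their log2 fold changes, 3.53 and 3.50, were below the median of the list. They were part of a group of 8 small regions spanning 12650 bp, of which 2800 bp was covered. By rank these flanks lay between those of the first and the last Kit locus.

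The last Kit locus touched a single region of 250 bp on its left, which ranked 56640 of 59923 with a log2 fold change of 3.21, the lowest in the window. On the right the next region began 8663 bp from the centre. A narrow, low-ranked region of this kind is lost when the lower 50% of the H3K4me1 list is left out.

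At the first Ednrb locus the gap was 1450 bp wide, wider than most, since the lower and upper quartiles of all gaps were 500 bp and 850 bp. Its left flank was a region of 150 bp ranked 52779, and its right flank one of 450 bp ranked 25594. At the second Ednrb locus the gap was 850 bp, between regions of 750 bp and 800 bp ranked 26808 and 11804. The latter, with a log2 fold change of 4.11, was the best ranked region of the Ednrb window.

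The third Ednrb locus sat between regions 2550 bp apart, the left one of 400 bp ranked 16462 and the right one of 300 bp ranked 35062. They ended 1153 bp before the centre and began 1398 bp after it. Both were close to the edges of the long EP300 peak, with the left one overlapping it and the right one 215 bp away. A gap of 2500 bp or more with regions within 2000 bp of the centre on each side was found at 27 of all 3573 shared loci, or 0.756%. The limit of 2500 bp was not planned and lies just under the 2550 bp of this locus. The share thus depends on where the limit was placed and is a description only. The strongest EP300 locus of both windows was flanked by H3K4me1 at its outer edges, and only a distance limit wider than 1000 bp counts it as a gap.

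The 2 windows differed in how much H3K4me1 they held in all, with the regions at EP300 loci included. Kit had 22 regions that covered 9650 bp (2.76% of the window), and Ednrb had 9 that covered 4350 bp (1.45%). Widths ran from 100 bp to 900 bp with a median of 400 bp in the Kit window, and from 150 bp to 900 bp with a median of 450 bp in the Ednrb window, against 500 bp for the whole list. In the upper 50% of the authors' ranking were 8 of the 22 Kit regions and 6 of the 9 Ednrb regions. Within 1000 bp of a shared EP300 locus were 8 of the 22 and 6 of the 9, compared with 11.2% of all regions. The widest regions were those of 900 bp, 1 in each window, at the first Kit locus and at chr14:104287900-104288799, the latter ranked 24149 and 1594 bp to the left of the second Ednrb locus. With 1 H3K4me1 list these counts have no replicate error and no test.

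In both windows the mark was gathered in a few places, and the share of all regions of the list in such groups was not worked out. In the Kit window 14 of the 22 regions were in the groups of 6 and 8 around the first 2 shared loci, and the stretch between chr5:75940749 and chr5:76046450 had no region in 105.7 kb. Between the groups lay regions such as the one at chr5:75881350-75881899, 550 bp long and ranked 16837, with no EP300 peak of either list on it. In the Ednrb window 5 of the 9 regions were in 12400 bp around the second and the third locus, and 109 kb to their left held none. The region at chr14:104318300-104318749, 450 bp long and ranked 22489, was the only one to the right of this group.

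**Figure D5:**
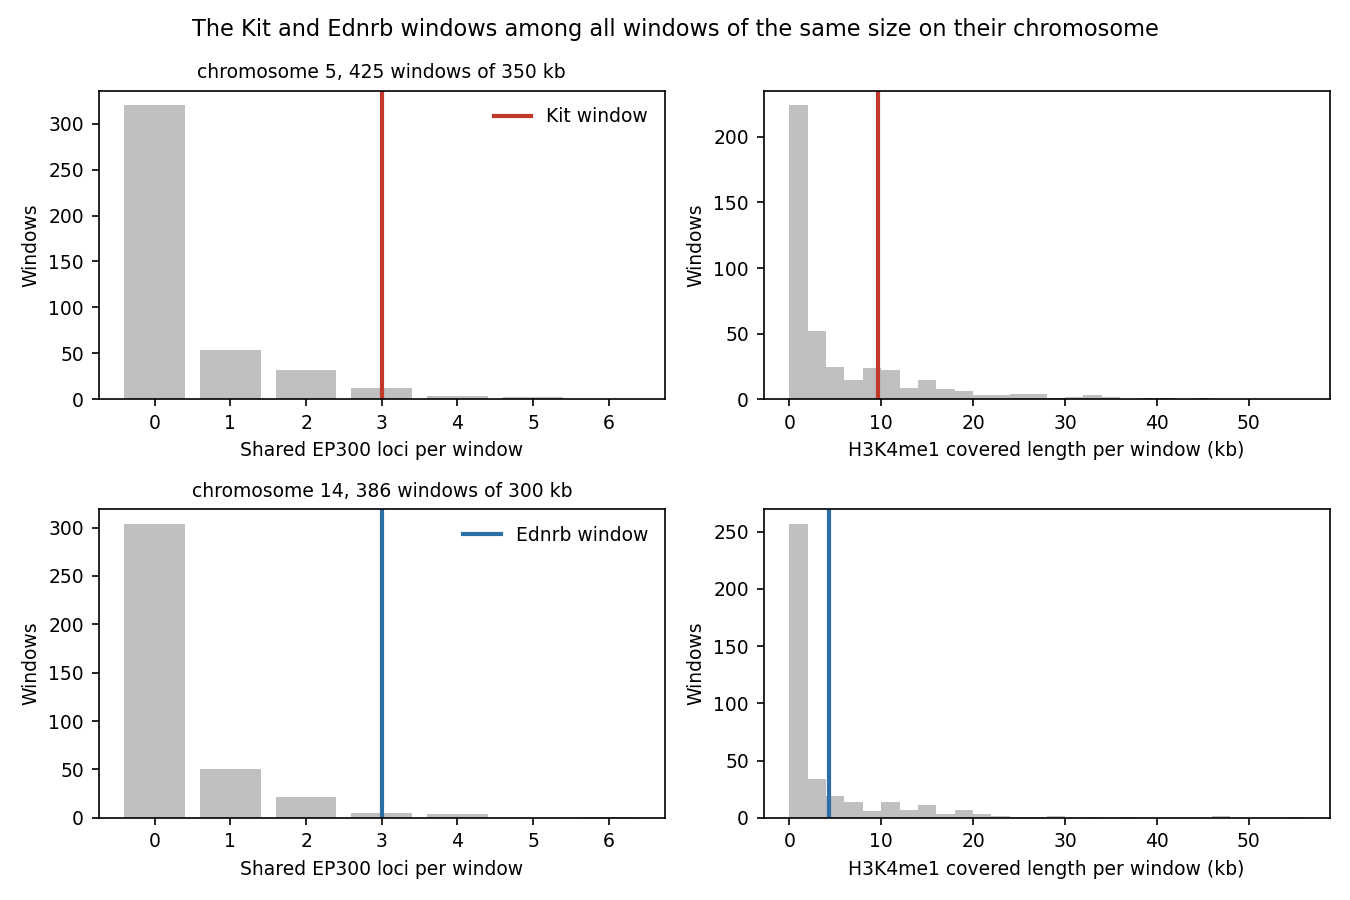
Number of windows (y axis) by shared EP300 loci (left) and by H3K4me1 covered length in kb (right), for all other windows of the same size laid end to end on chromosome 5 (upper row, 425 windows of 350 kb) and chromosome 14 (lower row, 386 windows of 300 kb), with the receptor windows as lines. The receptor windows are at the upper end for EP300 loci, with 3 each, and nearer the bulk for H3K4me1.

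Each receptor window was set beside all other windows of its size on its chromosome, laid end to end in phase with it, as a description without a test. Of the 425 windows on chromosome 5, 320 had no shared locus, and 4.47% had at least the 3 of Kit. Of the 386 windows on chromosome 14, 304 had none, and 2.59% had at least the 3 of Ednrb. Counting ties in part, Kit stood at percentile 96.9 and Ednrb at percentile 98.1. The fullest windows of chromosome 5 had 5 shared loci each, at chr5:105900000-106249999, chr5:92600000-92949999 and chr5:81400000-81749999. On chromosome 14 the fullest had 6, at chr14:32400000-32699999, and the next, ordered by covered length of H3K4me1 among those with 4, were chr14:26400000-26699999 and chr14:70500000-70799999. Windows with no H3K4me1 at all, 129 and 153 of the 2 sets, were included, and how much of each window could be mapped was not tested.

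By H3K4me1 the receptor windows were less far up. At least as much covered length as in the Kit window was found in 20.7% of windows on chromosome 5, and at least as much as in the Ednrb window in 23.1% on chromosome 14. The window with most EP300 loci on chromosome 14 carried 23650 bp of H3K4me1, against the 4350 bp of Ednrb with 3 loci. The chromosome 5 windows with 5 shared loci carried 11650 bp to 26950 bp, against 9650 bp in the Kit window. Windows with 3 shared loci, as many as the receptor windows, carried 17350 bp to 55900 bp on chromosome 14 (5 windows). On chromosome 5 they carried 8050 bp to 40950 bp (12 windows).

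The shared loci of both receptors were alone over long distances. From the first Kit locus the next shared locus to the left was 2087 kb away, and from the last Kit locus the next to the right was 1300.3 kb away. For Ednrb these distances were 1516 kb and 1689 kb. Within the windows, the Kit loci were 187.8 kb and 30.7 kb apart and the Ednrb loci 113 kb and 7.66 kb apart. Neighbouring shared loci had a median spacing of 183 kb across the genome, and 15.8% of spacings were 1300 kb or more. The limit of 1300 kb was not planned either and lies just under the 1300.3 kb to the right of Kit, so this share is a description only. Widening the windows by 100 kb on each side, a choice made after the values were seen, added no shared locus to either.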

How the data were processed

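EP300 and H3K4me1 peak lists of melan-a cells were used as deposited, in mm9 coordinates per the submitters' processing notes. Per the file headers, the authors called EP300 peaks with MACS 1.4.1 20110627 for each replicate against a control library (20010848 and 24669749 filtered tags), keeping no more than 2 duplicate tags at a position, with a p-value threshold of 1e-05 and a local background taken over 1000 bp and 10000 bp. The deposited values of a peak are its tag count, a significance score, a fold enrichment (a ratio) and a false discovery rate in percent. For H3K4me1 the deposited list gives a rank, a score, a -log10 Poisson p-value that stops at 100, a maximum log2 fold change and a false discovery rate (q-value). Not given in the sources used here are its caller, its depth and the pooling of its 2 replicates.

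The members and the lists of results were chosen with earlier results of these data known. Every shared locus was named, as were all single-list peaks, regions flanking shared loci, the best ranked regions and the fullest windows. Of the 3 widest regions per window that the rule asked for, those of 700 bp in the Kit window are tied and are given by the range. Overlap needed at least 1 bp, and a locus was centred on the middle of the bases shared by its best-ranked peak of each list. The background of a peak was the Poisson mean that gives its significance, over the peak length or 400 bp, relative to a genome-wide level of all filtered ChIP tags spread over 1.91e+09 bp, the effective genome size. The summit heights this implies were whole to within 0.1 fragments for 96.9% of 8403 and 96.1% of 10317 peaks. Intervals are exact (Clopper-Pearson, 95%) and cover counting error only, not a difference in peak length between replicates. Windows laid end to end took the place of random ones. No test was possible with 1 sample per antibody. Functions were tested on simulated data, with Python 3.11.15, numpy 2.4.6 and scipy 1.17.1. Motifs under EP300 peaks and other genes of the pathways were not analysed here, since no mm9 genome or annotation was used.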

Additional observations from a re-analysis of the deposited data

How the results depend on the processing

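Of 74 alternative values, 52 stayed near the main value and 22 moved further. Near means within 1.5 times the main count, within the binomial interval of the main percentile or within 1 SD of the main ratio. A fall from 3 loci to 2 therefore counts as near. With the upper 50% of each EP300 list, the Ednrb window kept 1 shared locus, with H3K4me1 nearby but 0 in a gap, at percentile 88.3. The Kit window kept 2 shared loci, with 1 in a gap. When 50% of the shorter peak had to overlap, Ednrb kept 2 shared loci, with 1 in a gap, and stood at percentile 94.7. With the upper 50% of H3K4me1 regions, Kit had 1 locus with H3K4me1 nearby, 1 in a gap and 5300 bp covered (percentile 74.2), and Ednrb had 1 in a gap. With regions within 500 bp, Kit had 1 locus in a gap and Ednrb 0. Within 2000 bp, all 3 Ednrb loci were in a gap. Without replicate 1 or without replicate 2, with every peak of the list that remains counted as a locus, Kit stood at percentile 92.2 and 89.5, and Ednrb had 5 and 4 loci, of which 1 and 2 were in a gap. Among windows that hold H3K4me1, covered length stood at percentile 70.8 for Kit and 62.0 for Ednrb (79.6 and 77.1 among all windows), and with windows of all chromosomes Ednrb stood at 70.3. For scaled tags in place of fold, the log2 replicate ratio of the last Kit locus went from -0.39 to 0.39. That of the third Ednrb locus also changed sign, from 0.13 to -0.23, but stayed within 1 SD. Fewer peaks, regions or windows enter most of these alternatives by construction, and for the others the cause was not tested. No paired analysis was possible because H3K4me1 has a single list and no groups were compared. How deeply H3K4me1 was sequenced is unknown, so the absence of a region is not the absence of the mark.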
